A study of Mus musculus with 4 samples.

Results

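Fatty acid binding and lipid uptake was followed in neonatal mouse epidermis through 7 genes, Fabp3, Fabp4, Fabp5, Fabp7, Cd36, Lpl and Plin2, out of the 54752 genes in the deposited tables. The genes were found by symbol and were chosen by their measured values in these same libraries, so the difference of each of them between genotypes is given as a description, and no test is put on it. Total RNA was sequenced from the epidermis of 4 C57BL/6 pups at postnatal day 0 (P0), with 2 pups of each genotype, to ask how loss of Skiv2l in keratinocytes alters epidermal gene expression. Skiv2l encodes the helicase that feeds RNA to the cytoplasmic exosome. The Skiv2l fl/fl K14-Cre genotype has both alleles floxed, with Cre driven by the keratin 14 promoter, so the deletion falls on keratinocytes and other cells of the skin keep the gene. The Skiv2l ctl group can hold littermates of 3 genotypes, of which fl/+ K14-Cre carries Cre while fl/fl and fl/+ do not. Which of them each control pup was is not in the labels, so every control shares at least 1 floxed allele with the knockouts and may share Cre.

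Fatty acids are poorly soluble in water and are carried inside cells by fatty acid binding proteins (FABPs), small beta-barrel proteins that hold a lipid in an inner cavity. FABP5 is the epidermal type, FABP4 the adipocyte type, which macrophages and capillary endothelium also make, FABP3 the heart and muscle type, and FABP7 the brain type. CD36 takes up fatty acids at the cell surface, lipoprotein lipase (LPL) releases them from circulating triglyceride, and perilipin 2 (PLIN2) coats the lipid droplets in which cells store them. In the epidermis, fatty acids also feed the ceramides and other lipids of the water barrier, and FABPs can carry ligands to nuclear receptors of the PPAR family.

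Levels were read as FPKM, the fragment number divided by transcript length and by the library total, as deposited by the authors, which can be compared between genes because it is per length. Fabp5, Fabp4 and Plin2 were higher in both Skiv2l fl/fl K14-Cre libraries than in both Skiv2l ctl libraries. Fabp7 and Lpl were lower in both, the Cd36 ranges overlapped, and Fabp3 was lower in both at a very low level. Fabp3 did not reach an FPKM of 0.5 in any library and was left out of the fit, so 6 of the 7 genes were among the 13609 protein-coding genes that entered limma, a linear model with variances moderated across genes. As a description of where the fit placed them, 3 of the 6 were among the genes called higher in the knockouts and 0 among those called lower, where called means a Benjamini-Hochberg adjusted p under 0.05. Of all tested genes, 34.4% were called, 8.99% higher and 25.4% lower. Both knockout libraries lay above both controls for 18.2% of all tested genes and below both for 55.3%. Since the 7 genes were selected on this contrast, nothing is read from their share against these backgrounds.

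**Figure D1:**
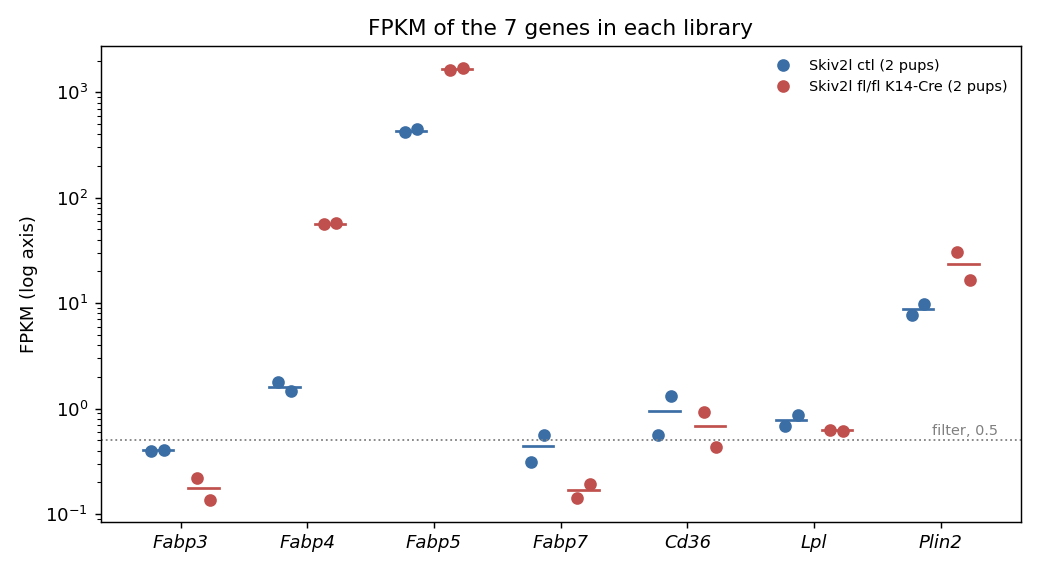
FPKM (vertical, log axis) of each of the 7 genes in the 2 Skiv2l ctl and the 2 Skiv2l fl/fl K14-Cre libraries, with 1 point per pup, a bar at each mean and a dotted line at the filter of 0.5 FPKM. Fabp4 moves from below 2 to above 55 FPKM, Fabp5 and Plin2 also lie higher in both knockouts, and the other 4 genes stay below 1.4 FPKM in every library.

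The libraries were alike in depth, with a ratio of coverage to FPKM, which scales with the number of aligned bases, of 6.085 and 6.274 in controls against 5.843 and 5.931 in knockouts. The number of genes above 0.5 FPKM was 17761 and 17638 in controls against 17384 and 16138 in knockouts. Skiv2l itself was at 19.3 and 19.1 FPKM in Skiv2l ctl against 10.8 and 8.55 FPKM in the knockouts, and its exons overlap those of Dxo. Log2 fold changes are on the log2(FPKM + 1) scale, knockout minus control, and understate the change of low genes. The median log2 fold change of all tested genes was -0.20, against -0.03 when the libraries were scaled to 1 median, so differences under about that size depend on the scaling. In whole epidermis, fewer cells of a type and less RNA per cell cannot be told apart.

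Fabp5 (ENSMUSG00000027533.10, chr3:10012548-10016607, plus strand, GRCm38) was by far the most abundant FABP gene. Its FPKM was 418 and 446 in Skiv2l ctl pups against 1641 and 1718 in the knockouts. Both knockouts were high, the groups were far apart, and pups of the same genotype differed little. The mean went from 432 ± 19.7 (SD, n = 2) to 1679.7 ± 54.6 FPKM (SD, n = 2), a 3.89-fold ratio and a log2 fold change of 1.96 (SE 0.09). By FPKM among protein-coding genes, Fabp5 stood at rank 78 and 74 in controls against rank 16 and 15 in knockouts. The deposited coverage, the mean read depth per base, was 802 and 832 in controls against 2896 and 3051 in knockouts, the same order.

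Fabp5 has processed pseudogenes elsewhere in the genome that can draw or lend reads. Of the 75-base stretches of Fabp5 transcripts, 3.03% occurred in transcripts of another gene, all of them in the pseudogene Gm6166, and 1.38% occurred in the pseudogene Gm14328. Gm6166 was at 3.76 and 3.95 FPKM in controls against 11.7 and 15.3 FPKM in knockouts, the order of Fabp5 at 0.713% to 0.900% of its level. Gm14328 was at 0.733 and 0.593 FPKM in controls against 3.19 and 3.30 FPKM in knockouts. The copy Fabp5l2 was at 0.733 and 0.929 FPKM in controls against 2.28 and 1.99 FPKM in knockouts. The first pair of pseudogenes was singled out after their values were seen, and how the authors' counting shared reads among these copies was not given in the sources used here.

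Fabp4 (ENSMUSG00000062515.3, chr3:10204088-10208576, minus strand, GRCm38) had the largest difference of the 7 genes. Its FPKM was 1.78 and 1.45 in Skiv2l ctl pups against 55.8 and 57.8 in the knockouts. The gene was low in both controls, and the knockouts were close to each other and far above them. The mean went from 1.62 ± 0.232 (SD, n = 2) to 56.8 ± 1.45 FPKM (SD, n = 2), a 35.1-fold ratio and a log2 fold change of 4.47 (SE 0.11), which was rank 18 from the highest of the 13609 tested genes. Among protein-coding genes, Fabp4 moved from rank 10873 and 11247 by FPKM in the controls to rank 883 and 837 in the knockouts. No 75-base stretch of Fabp4 was shared with another gene and no other gene overlapped its exons, so its reads had 1 annotated source.

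Because Fabp4 is best known from fat, the markers of the cells that make it were read beside it. The summed FPKM of 9 adipocyte markers was 1.66 and 1.58 in controls against 2.15 and 2.06 in knockouts. Adipoq, the fat hormone adiponectin, and Cidec, the droplet protein of white fat, were listed at 0 in all 4 libraries, and 2 of the 9 markers passed 0.5 FPKM in any library. Both knockouts lay above both controls in the sum and in Retn and Pparg, while the other 7 markers overlapped or were at 0. Without Pparg the sums overlapped, at 1.08 and 0.686 FPKM in controls against 1.24 and 0.786 FPKM in knockouts. The 9 blood endothelium markers summed to 3.41 and 2.82 FPKM in controls against 3.46 and 1.82 FPKM in the knockouts, with Emcn listed at 0 throughout. The 10 macrophage and Langerhans cell markers summed to 33.7 and 45.4 FPKM in controls against 23.4 and 19.0 FPKM in knockouts. Of the 10, 7 were below both controls in both knockouts, 1 was above and 2 overlapped. Over all tested genes, 55.3% lay below both controls in both knockouts and 18.2% above, so nothing is read from this count. Without Cd74, the most abundant, the sums were 20.6 and 29.0 FPKM in controls against 18.8 and 14.6 FPKM in knockouts. These sums are levels of other genes, which cannot be set against the Fabp4 level, and the part of such cells in the Fabp4 values was not tested.

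Within the FABP family the pool stayed dominated by Fabp5 while the share of Fabp4 grew. The 10 FABP genes summed to 421 and 449 FPKM in controls against 1698 and 1777 FPKM in knockouts. Fabp5 made up 99.32% and 99.36% of that sum in controls against 96.66% and 96.71% in knockouts. Fabp5 was thus nearly the whole pool in every library. For each 100 FPKM of Fabp5 there were 0.427 and 0.326 FPKM of Fabp4 in controls against 3.40 and 3.37 FPKM in knockouts. The other 8 genes together were at 1.08 and 1.40 FPKM in controls against 0.888 and 0.668 FPKM in knockouts, below either of the 2 in the knockouts. The coding sequences of Fabp4 and Fabp5, of 396 and 405 bases, were 66.9% identical over 384 aligned bases, and the pairs among Fabp3, Fabp4, Fabp5 and Fabp7 ran from 63.6% to 71.3%.

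Fabp3 (ENSMUSG00000028773.8, chr4:130308595-130315463, plus strand, GRCm38) was at 0.398 and 0.402 FPKM in Skiv2l ctl against 0.221 and 0.136 FPKM in the knockouts. Both knockouts were below both controls at a level that the filter excludes. A further limit is that 26.0% of its 75-base stretches occurred in other genes, most of them in the pseudogene Fabp3-ps1, which was at 0.270, 0.0975, 0.119 and 0.177 FPKM in the same order, and that Zcchc17 and Gm10570 overlap its exons. The 8 skeletal muscle markers, in a tissue where FABP3 is the usual carrier, summed to 3.27 and 2.84 FPKM in controls against 1.68 and 1.35 FPKM in knockouts. Mylpf carried that difference, at 2.48 and 2.01 FPKM in controls against 0.568 and 0.989 FPKM in knockouts, and the other 7 summed to 0.792 and 0.829 FPKM in controls against 1.11 and 0.359 FPKM in knockouts, an overlap. The part of muscle RNA in the Fabp3 values was not tested.

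Fabp7 (ENSMUSG00000019874.11, chr10:57784881-57788450, plus strand, GRCm38), which glia make, was at 0.312 and 0.562 FPKM in Skiv2l ctl against 0.141 and 0.193 FPKM in the knockouts. Both knockouts were low, but the controls differed from each other more than the knockouts did, and the gene passed the filter through 1 control library. Its log2 fold change was -0.30 (SE 0.16). The 8 Schwann cell markers summed to 74.9 and 72.1 FPKM in controls against 73.3 and 103 FPKM in knockouts, and the 7 markers of melanocytes, another neural crest derivative, to 59.9 and 67.4 FPKM in controls against 62.5 and 76.0 FPKM in knockouts. The genotypes overlapped in both sums.

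Fabp5 and Fabp4 lie on chromosome 3, on opposite strands, with 187481 bases between the end of Fabp5 and the start of Fabp4. The stretch from 200000 bases before Fabp5 to 200000 bases after Fabp4 holds 23 annotated genes, 13 of them protein-coding and 7 tested. Further FABP genes of the stretch did not share the level of the pair. Pmp2, the myelin FABP, was listed at 0 in all 4 libraries. Fabp9, the testis FABP, was listed at 0 in both controls and at 0.232 and 0 FPKM in the knockouts. Fabp12 was at 0.172 and 0 FPKM in controls against 0.0726 and 0.145 FPKM in knockouts. Gm9833, which lies between Fabp5 and Fabp4, had a log2 fold change of -0.23 (limma adjusted p = 0.286).

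The tested protein-coding genes on either side had smaller log2 fold changes than Fabp5 and Fabp4. Pag1, a membrane adaptor upstream of Fabp5, was at 2.11 and 1.91 FPKM in controls against 3.02 and 2.81 FPKM in knockouts, a log2 fold change of 0.38 that missed the threshold (limma adjusted p = 0.0573). Beyond Fabp4, the log2 fold change was 0.29 for Impa1 (limma adjusted p = 0.131) and 0.13 for Chmp4c (limma adjusted p = 0.381), and Zfand1 fell by 0.52 on the log2 scale (limma adjusted p = 0.0309). The long noncoding RNA Gm38335, just downstream of Fabp5 on the opposite strand and singled out after its values were seen, was at 0.797 and 0.409 FPKM in controls against 3.65 and 2.95 FPKM in knockouts. Whether the counting used strand was not given in the sources used here, so reads that run past the end of Fabp5 and reads of Gm38335 cannot be told apart.

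**Figure D2:**
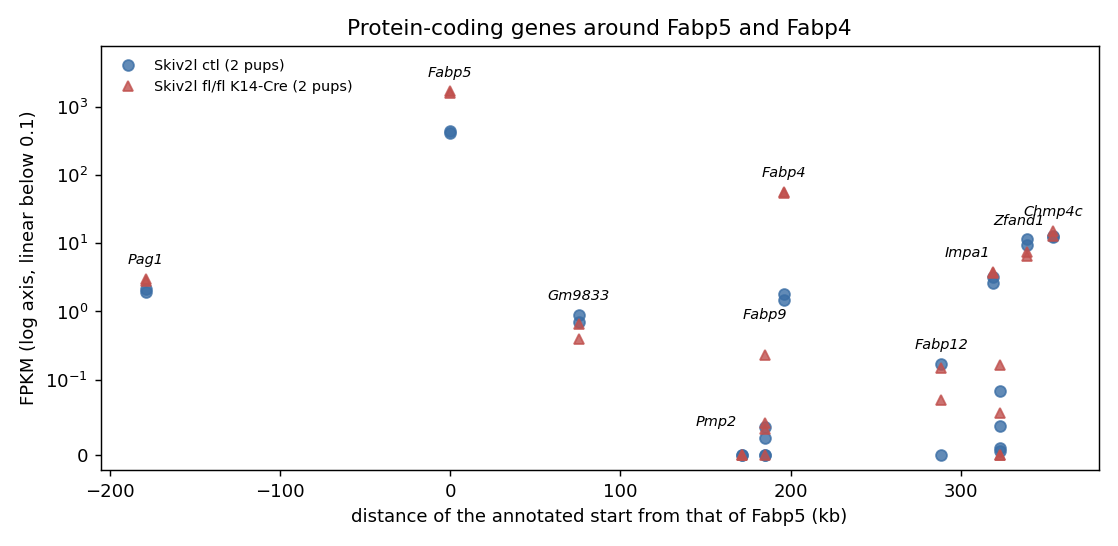
FPKM (vertical, log axis that is linear below 0.1) of the 13 protein-coding genes around Fabp5 and Fabp4, against the distance of each annotated start from that of Fabp5 in kilobases, with 1 point per pup. Fabp5 and Fabp4 are well apart between genotypes, Pag1, Impa1, Zfand1 and Chmp4c show small gaps or overlap, and Pmp2, Fabp9 and Fabp12 lie near 0. Points without a name are further genes below 0.5 FPKM.

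For lipid uptake at the cell surface, Cd36 (ENSMUSG00000002944.15, chr5:17781690-17888801, minus strand, GRCm38) was at 0.557 and 1.33 FPKM in Skiv2l ctl against 0.919 and 0.436 FPKM in the knockouts. The groups overlapped, and the highest and lowest values sat in a control and a knockout with the other 2 between them. The mean was 0.942 ± 0.544 in Skiv2l ctl against 0.678 ± 0.342 FPKM in Skiv2l fl/fl K14-Cre epidermis (SD, n = 2 each), and the log2 fold change was -0.20 (SE 0.25). Without the second control it was 0.09, without the second knockout 0.01 and without the first control -0.49, so its sign rests on single libraries.

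Lpl (ENSMUSG00000015568.16, chr8:68880491-68907448, plus strand, GRCm38) was at 0.691 and 0.862 FPKM in Skiv2l ctl against 0.627 and 0.618 FPKM in the knockouts. Both knockouts were just below both controls. The mean went from 0.776 ± 0.121 to 0.622 ± 0.00665 FPKM (SD, n = 2 each), with a log2 fold change of -0.13 (SE 0.14), closer to 0 than the -0.20 median of all tested genes. It was -0.04 with the libraries scaled to 1 median and 0.04 with quantile normalization. Gpihbp1, the endothelial protein that anchors LPL in capillaries, was listed at 0 in 3 libraries and at 0.0391 FPKM in the second knockout.

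Angptl4, a secreted inhibitor of LPL, was at 4.62 and 6.32 FPKM in Skiv2l ctl against 0.837 and 0.166 FPKM in the knockouts. It was low in both knockouts with no overlap and fell by 2.13 on the log2 scale (SE 0.25, limma adjusted p = 0.0023), a call that held in all 12 alternatives tried. Angptl4 is also a known target of PPARs, as are Plin2 and Fabp4, whose levels lay in the opposite direction.

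Plin2 (ENSMUSG00000028494.12, chr4:86648386-86670060, minus strand, GRCm38), the droplet coat of most cell types, was at 7.78 and 9.81 FPKM in Skiv2l ctl against 30.4 and 16.7 FPKM in the knockouts. Both knockouts were above both controls, but they differed from each other by a factor of 1.82, more than the pups of either genotype differed in Fabp4 or Fabp5. The mean went from 8.79 ± 1.44 to 23.6 ± 9.68 FPKM (SD, n = 2 each), a 2.68-fold ratio and a log2 fold change of 1.28 (SE 0.27), rank 297 from the highest. Without the first knockout the log2 fold change was 0.86, and without the second it was 1.69. The 9 sebocyte markers, from gland cells rich in droplets, summed to 20.2 and 26.9 FPKM in controls against 30.9 and 25.5 FPKM in knockouts. These sums overlapped, and without the abundant Far2 they did not. Of the 9, 4 were above both controls in both knockouts, 2 below and 3 overlapped, and those above included Cidea, Scd3, at 0.620 and 0.806 FPKM in controls against 1.38 and 1.51 FPKM in knockouts, and Elovl3, at 0.463 and 1.03 FPKM against 1.96 and 1.32 FPKM. Over all tested genes, 18.2% lay above both controls in both knockouts and 55.3% below. Without Far2 the sums were 7.53 and 11.4 FPKM in controls against 18.6 and 15.5 FPKM in knockouts. Cidea, at 0.814 and 1.18 FPKM in controls against 7.71 and 5.80 FPKM in knockouts, made up much of that difference. The part of sebocyte RNA in the Plin2 values was not tested. Of the 75-base stretches of Plin2, 0.83% occurred in the pseudogene Gm12551, named after its values were seen, which stayed between 0.573 and 1.07 FPKM.

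Promoter sequence was shown for Plin2, which was higher in the knockouts, and for Cd36 and Fabp7, which were not, because PPARs and their retinoid X receptor partners bind repeats of the half-site AGGTCA and the members include known PPAR targets. RefSeq windows on GRCm38.p6, from 250 bases before to 50 bases after the annotated start, were matched for 4 of the 7 genes, Fabp3, Fabp7, Cd36 and Plin2. The windows are 5′ to 3′ on the strand of the gene, with matches to AGGTCA or CACGTG on either strand in capitals. The Plin2 window is chr4:86670010-86670309 on the minus strand, the Cd36 window chr5:17835847-17836146 on the minus strand, inside the annotated span of the gene, and the Fabp7 window chr10:57784673-57784972 on the plus strand.
Plin2: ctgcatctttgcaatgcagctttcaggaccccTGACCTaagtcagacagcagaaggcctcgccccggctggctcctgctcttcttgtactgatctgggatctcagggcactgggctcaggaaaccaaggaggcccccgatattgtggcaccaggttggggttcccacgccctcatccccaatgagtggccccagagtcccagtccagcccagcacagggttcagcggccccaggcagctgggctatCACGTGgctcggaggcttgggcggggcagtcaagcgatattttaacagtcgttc
Cd36: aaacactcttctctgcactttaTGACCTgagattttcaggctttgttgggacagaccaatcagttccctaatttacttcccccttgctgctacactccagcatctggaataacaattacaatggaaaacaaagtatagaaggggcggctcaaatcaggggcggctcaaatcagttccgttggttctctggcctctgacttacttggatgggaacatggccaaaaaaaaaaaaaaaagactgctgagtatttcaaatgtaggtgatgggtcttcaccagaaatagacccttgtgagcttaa
Fabp7: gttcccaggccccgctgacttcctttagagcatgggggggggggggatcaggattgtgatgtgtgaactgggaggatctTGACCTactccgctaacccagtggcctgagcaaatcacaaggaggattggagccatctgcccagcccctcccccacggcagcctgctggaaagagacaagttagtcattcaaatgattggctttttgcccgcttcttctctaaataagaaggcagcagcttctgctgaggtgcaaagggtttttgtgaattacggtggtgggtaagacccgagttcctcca

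Each of these 3 windows held 1 half-site, read on the opposite strand as TGACCT, which began 218 bases before the start in Plin2, 228 in Cd36 and 171 in Fabp7. Plin2 also held CACGTG, the palindrome read by basic helix-loop-helix factors, beginning 4 bases before the start. The Fabp3 window held neither, and the paired form AGGTCANAGGTCA was in 0 of the 4. Among all 32851 promoter windows of the same length, AGGTCA was in 16.3%, CACGTG in 7.15% and AGGTCANAGGTCA in 0.0396% (both strands, and the paired form contains the single one). The half-site was in the windows of Plin2, Cd36 and Fabp7 alike, and a match of letters is a description and not a bound site.

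Genes near the 7 in function were read from 6 lists, each described by its counts and its median beside those of all tested genes. The lists were chosen with earlier results of these data known, so their counts are a description. Among all tested genes, 8.99% were called higher and 25.4% lower. Over all tested genes 1223 were called higher and 3455 lower, which dropped to 497 and 805 without the first control and to 542 and 810 without the second. Of the 11 other intracellular lipid-binding proteins, which share the FABP fold, 4 were tested, 3 rose, 0 fell and 1 was not called, with a median log2 fold change of 1.32 against -0.20 over all tested genes. Crabp2, which delivers retinoic acid to its nuclear receptor, went from 33.3 and 38.4 to 103 and 93.6 FPKM (log2 fold change 1.43, SE 0.10, limma adjusted p = 0.000494). Rbp2, a retinol carrier best known from the intestine, went from 123 and 124 to 271 and 305 FPKM (log2 fold change 1.21, SE 0.09, limma adjusted p = 0.000541). Both were, with Fabp5 and Fabp4, higher in both knockouts by more than the pups of a genotype differed, and the counts of this list were 3 and 0 under both other scalings and without any 1 library.

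Of the 23 genes of fatty acid transport and activation, 20 were tested, 3 rose, 10 fell and 7 were not called, with a median log2 fold change of -0.41. Slc27a4 rose and Slc27a3 fell. Slc27a4, the fatty acid transporter needed for the skin barrier, went from 53.7 and 59.2 to 93.4 and 73.1 FPKM (log2 fold change 0.54, limma adjusted p = 0.0242), while Slc27a6 was at 0.357 and 0.370 FPKM in controls against 1.04 and 0.804 FPKM in knockouts. Slc27a6 entered the fit through the knockouts alone, so its call among the 3 that rose gives no support, and 1 of the 10 that fell entered through the controls alone. Slc27a3 went from 18.2 and 16.9 to 7.55 and 6.35 FPKM (-1.22, limma adjusted p = 0.0011). Got2, a mitochondrial transaminase also described as a membrane fatty acid binding protein, rose by 0.67 on the log2 scale (limma adjusted p = 0.00373), with 19.3% of its stretches shared with other genes. Acsl4, which activates long-chain fatty acids to their CoA esters, and Dbi, the acyl-CoA binding protein, fell by 1.12 and 1.04 on the log2 scale (limma adjusted p = 0.00297 and 0.000704). The list had 5 genes higher and 9 lower under median scaling and 4 and 10 under quantile normalization. With either control library left out, 0 or 1 were higher and 5 lower, and the call of Slc27a4 was lost in both cases. The call of Slc27a6 was lost without any 1 of the 4 libraries and with the replicate block.

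Of the 28 LPL partners and lipases, 22 were tested, 5 rose, 5 fell and 12 were not called, with a median log2 fold change of -0.04. Lrp1, a receptor for lipoprotein remnants, went from 39.0 and 36.3 to 63.7 and 80.8 FPKM (log2 fold change 0.91, limma adjusted p = 0.004), and its ligand Apoe from 88.6 and 121 to 196 and 182 FPKM (0.86, limma adjusted p = 0.00903). Lipg, the endothelial lipase, rose by 0.50 on the log2 scale (limma adjusted p = 0.0206). Beside Angptl4, the 2 largest falls were those of Pnpla3, a droplet hydrolase, at -0.76 (limma adjusted p = 0.00276), and Mgll, which cleaves monoglycerides, at -0.51 (limma adjusted p = 0.00923). Under median scaling 9 genes were called higher, 2 lower and Mgll not, and quantile normalization gave 9 and 5, so the split of this list depends on the scaling. With either control library left out, 1 or 2 genes were called in each direction, and the calls of Lipg and Mgll were lost in both cases.

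Of the 34 genes of the lipid droplet and triglyceride synthesis, Plin2 apart, 26 were tested, 5 rose, 6 fell and 15 were not called, with a median log2 fold change of -0.01. Cidea, which enlarges droplets by fusing them and is also among the 9 sebocyte markers, was at 0.814 and 1.18 FPKM in controls against 7.71 and 5.80 FPKM in knockouts (log2 fold change 1.95, SE 0.17, limma adjusted p = 0.000917), and was called in all 12 alternatives. Like Plin2 it was higher in the first knockout than in the second. Agpat2 rose by 0.87 on the log2 scale (limma adjusted p = 0.0114) and overlaps Egfl7. Soat2, which esterifies cholesterol for storage, was at 0.0457 and 0.0031 FPKM in controls against 0.759 and 0.610 FPKM in knockouts and entered the fit through the knockouts alone, so its call among the 5 that rose gives no support. Gpam, the first enzyme of glycerolipid synthesis in mitochondria, went from 21.4 and 20.2 to 10.5 and 10.4 FPKM (-0.93, limma adjusted p = 0.00123), and Agpat4 fell by 0.73 (limma adjusted p = 0.0025). Agpat5 was at 44.8 and 20.4 FPKM in controls against 6.89 and 5.81 FPKM in knockouts (-2.10, SE 0.33, limma adjusted p = 0.0061), with controls far apart and 18.3% of its stretches shared with the overlapping Gm35934. Median scaling gave 11 genes higher and 3 lower and quantile normalization 11 and 4, so the balance of this list also depends on the scaling. With either control library left out, 1 gene was higher and 3 lower, and the calls of Agpat2 and Soat2 were lost in both cases.

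Among the 27 PPAR receptors, partners and targets, 19 were tested, 2 rose, 7 fell and 10 were not called, with a median log2 fold change of -0.29. Ppard, the most abundant of the 3 PPAR genes here and the receptor to which FABP5 can carry ligands, was at 45.8 and 39.9 FPKM in controls against 69.3 and 62.4 FPKM in knockouts (log2 fold change 0.61, SE 0.10, limma adjusted p = 0.00803). The call of Ppard was lost without the second control, where the limma adjusted p was 0.075, the highest over the alternatives, and the lowest was 0.0023. Ppara was at 0.742 and 0.647 FPKM in controls against 0.237 and 0.220 FPKM in knockouts (-0.46, limma adjusted p = 0.0508). Pparg, the receptor of fat and sebaceous cells, was at 0.581 and 0.896 FPKM in controls against 0.906 and 1.27 FPKM in knockouts (0.27, limma adjusted p = 0.256). Creb3l3, a membrane-bound transcription factor, rose by 1.03 on the log2 scale (limma adjusted p = 0.00301). The falls named were those of the thioesterase Acot1 at -0.93 (limma adjusted p = 0.00179), of Acot2 at -0.57 (limma adjusted p = 0.0243) and of Rxra, the partner receptor, at -0.43 (limma adjusted p = 0.01), where Acot1 and Acot2 share stretches with related genes. With median scaling 1 gene was lower and with quantile normalization 2, so most falls of this list did not hold there. With either control library left out, 1 gene was lower, and the calls of Acot2 and Rxra were lost in both cases.

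In the 34 genes of fatty acid beta-oxidation 33 were tested, 2 rose, 16 fell and 15 were not called, with a median log2 fold change of -0.37. Acaa2, the last enzyme of the mitochondrial cycle, went from 70.9 and 73.5 to 34.4 and 27.5 FPKM (-1.20, SE 0.12, limma adjusted p = 0.00132), and Abcd3, a peroxisomal importer, from 39.2 and 40.7 to 23.5 and 19.6 FPKM (-0.87, limma adjusted p = 0.00278). Slc25a20, the carnitine carrier, fell by 0.77 (limma adjusted p = 0.0286) but was not called under either other scaling. Cpt1b, the muscle form of the enzyme that commits fatty acids to mitochondria, was at 0.0659 and 0.196 FPKM in controls against 0.839 and 0.861 FPKM in knockouts, with 77.1% of its stretches shared with Gm44502. Cpt1b entered the fit through the knockouts alone, so its call among the 2 that rose gives no support. Median scaling gave 4 genes higher and 12 lower and quantile normalization 4 and 13, so there were more lower than higher calls under each. With either control library left out, 0 or 1 were higher and 2 lower.

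**Figure D3:**
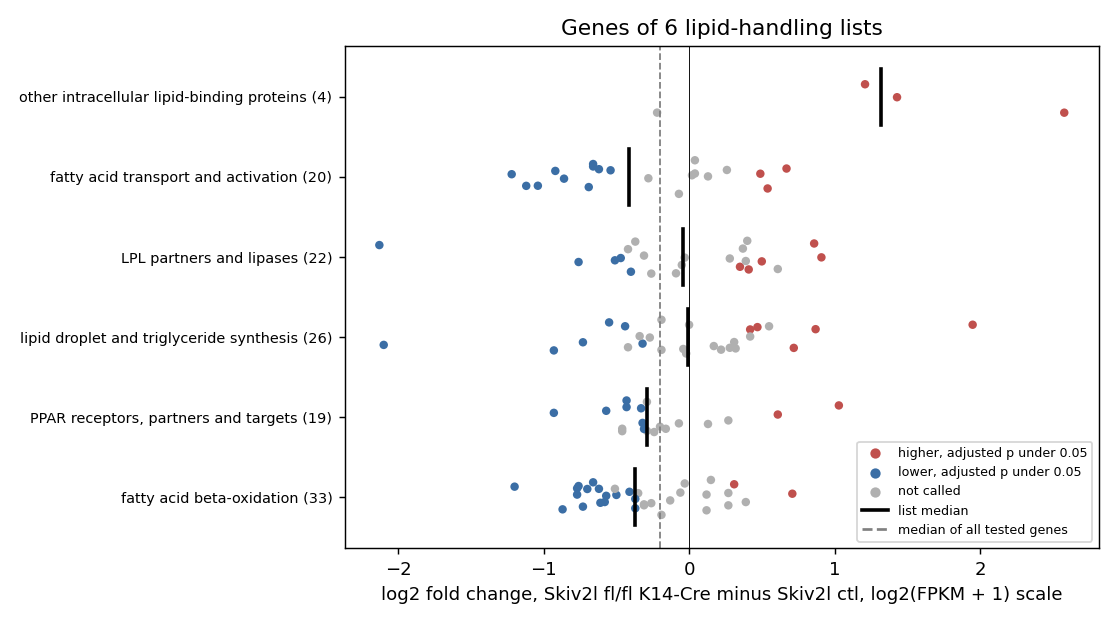
Log2 fold change on the log2(FPKM + 1) scale, knockout minus control, of each tested gene in the 6 lists, which hold none of the 7 genes themselves. Points are red or blue where limma called the gene higher or lower and grey where it did not, thick bars mark list medians, and the dashed line marks the median of all tested genes. Called genes lie on both sides of 0 in 5 of the lists, and the 3 called genes of the other lipid-binding proteins lie above 1.

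The sums of the remaining cell type marker lists also differed between genotypes, in some lists through 1 gene. Basal keratinocyte markers, 7 genes, summed to 4729 and 4891 FPKM in controls against 9798 and 9795 FPKM in knockouts, a rise of the sum that came from Krt14, at 1736 and 1812 against 7381 and 7312 FPKM. The other 6 summed lower in knockouts, at 2418 and 2483 FPKM against 2993 and 3079 FPKM in controls. Among them, Krt15 was at 462 and 428 FPKM in controls against 92.1 and 155 FPKM in knockouts, and Krt5 at 2003 and 2075 FPKM against 1761 and 1759 FPKM. Of the 7 basal markers, 2 were above both controls in both knockouts, Krt14 included, 3 were below and 2 overlapped. Over all tested genes, 18.2% lay above both controls in both knockouts and 55.3% below. The 8 suprabasal markers, led by Krt1, summed to 29010 and 30120 FPKM in controls against 20375 and 23484 FPKM in knockouts, so keratinocyte markers led in all 4 libraries. The 8 dermal fibroblast markers summed to 62.0 and 69.8 FPKM in controls against 22.4 and 25.4 FPKM in knockouts. Dcn carried that difference, at 57.0 and 62.7 FPKM in controls against 16.9 and 21.4 FPKM in knockouts. The sums of the other 7 overlapped, at 5.02 and 7.08 FPKM in controls against 5.45 and 3.99 FPKM in knockouts. Gene by gene, 5 of the 8 were below both controls in both knockouts, 1 was above and 2 overlapped. With 55.3% of all tested genes below both controls, nothing is read from this count. Those below included Dcn and Col1a2, and the 1 above was Pdgfra. The 6 erythroid markers summed to 134 and 125 FPKM in controls against 62.0 and 80.7 FPKM in knockouts. The part of these shifts in the Fabp5, Fabp4 and Plin2 values was not tested.

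**Figure D4:**
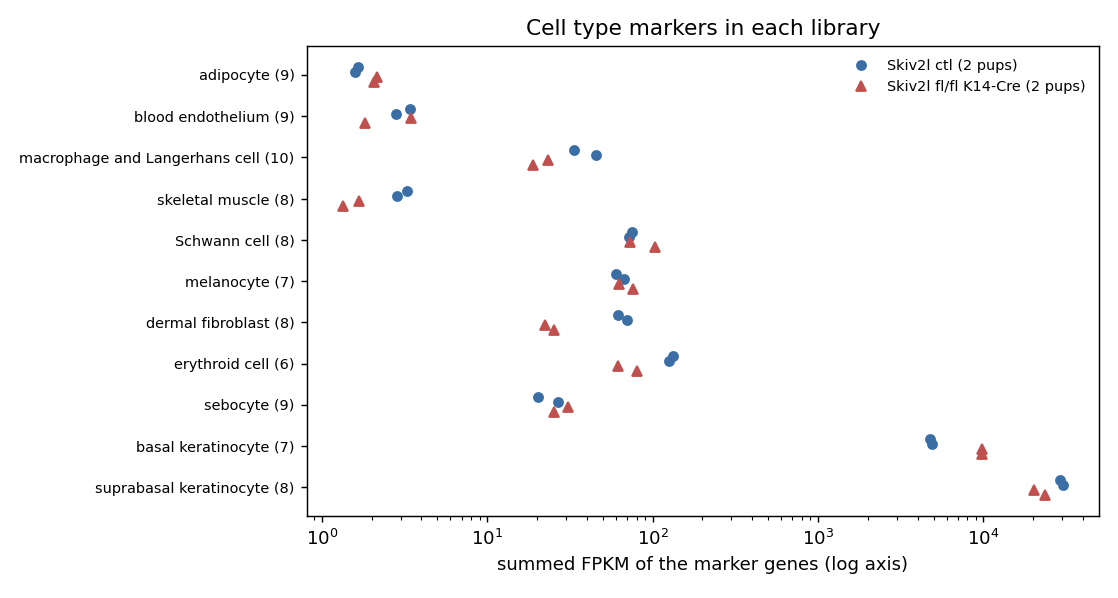
Summed FPKM (log axis) of the markers of 11 cell types in each of the 4 libraries, with 1 point per pup. The basal keratinocyte sum is higher in both knockouts through Krt14, and the muscle and fibroblast sums are lower through Mylpf and Dcn. The macrophage, erythroid and suprabasal sums are lower. The adipocyte sum is higher, at 2.15 and 2.06 against 1.66 and 1.58 FPKM, and without Pparg the adipocyte sums overlap.

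The genes whose profile over the 4 libraries lay nearest to each member were named by Euclidean distance between log2(FPKM + 1) values centred on the gene mean, a likeness over 4 libraries that share 2 genotypes. Nearest to Fabp4 were Rptn (distance 0.172), which encodes the cornified envelope protein repetin and was at 43.2 and 36.9 FPKM in controls against 1020 and 929 FPKM in knockouts, and Sprr2a2 (0.219), a small proline-rich envelope protein. Nearest to Fabp5 were Trex1 (0.0578), a DNA exonuclease, and Stom (0.0716), a membrane protein. Nearest to Plin2 were Krt90 (0.125) and Plaur (0.138), the urokinase receptor. Like Plin2, Plaur was higher in the first knockout, at 6.74 FPKM, than in the second, at 3.55 FPKM. Krt90 was at 0.0738 and 0.184 FPKM in controls against 2.56 and 1.12 FPKM in knockouts. Trex1 and Krt90 entered the fit through the knockouts alone, and the log2(FPKM + 1) scale understates the change of such low genes. Their likeness to Fabp5 and Plin2 therefore gives no support. For the low genes the nearest profiles were Prpsap2 and Pold2 for Fabp7, Tmem253 and Tmem17 for Cd36, and Gstm4 and Nfkbil1 for Lpl, at distances from 0.0124 to 0.0513.

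Over the alternative settings the members kept apart as described. The log2 fold change ran from 4.38 to 5.06 for Fabp4, from 1.62 to 2.17 for Fabp5 and from 0.86 to 1.69 for Plin2. It ran from -0.98 to -0.15 for Fabp7, from -0.49 to 0.09 for Cd36 and from -0.27 to 0.04 for Lpl, so the latter pair crossed 0.

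**Figure D5:**
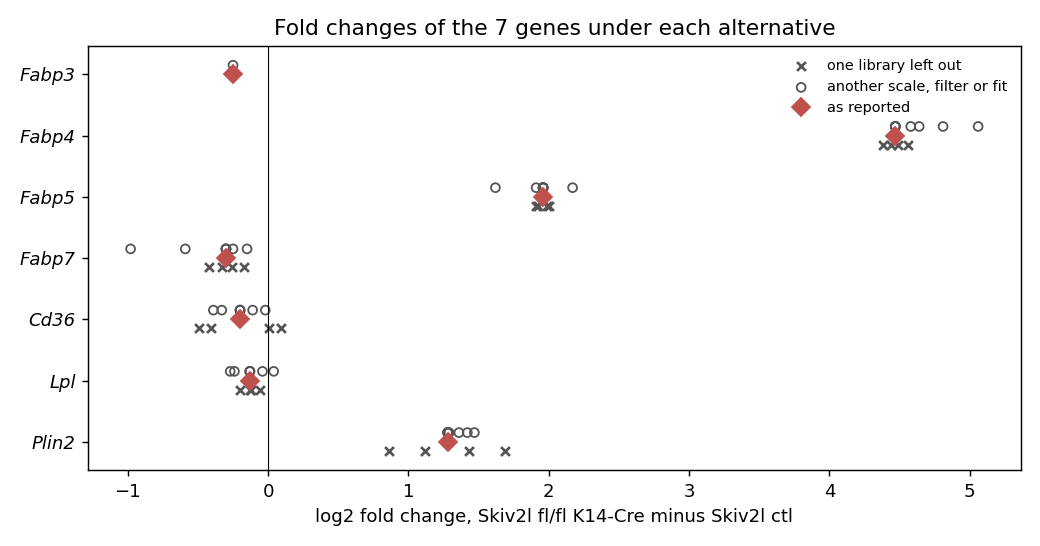
Log2 fold change, knockout minus control, of each of the 7 genes under every alternative setting, with crosses where 1 library is left out, circles for another scale, filter or fit, and diamonds for the value as reported. Fabp4, Fabp5 and Plin2 stay above 0 throughout, Fabp7 stays below it, Cd36 and Lpl lie on both sides, and Fabp3 has a value with no filter alone.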

How the data were processed

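RNA-seq of P0 epidermis, 2 pups per genotype, was taken from 1 table per library. The authors deposited FPKM (fragments per transcript length and library total), TPM (scaled to a common sum) and a coverage signal (mean read depth per base). The aligner, the read sharing among copies and the strand setting are not given in the sources used here. Of 54752 genes, 54029 have the GRCm38 coordinates of GENCODE M21. FPKM was summed per gene identifier. The 13609 protein-coding genes above 0.5 FPKM in at least 1 sample were fitted by limma 3.58.1 (R 4.3.3) after a log2(FPKM + 1) transform (eBayes with a trend, two-sided, Benjamini-Hochberg). The fit was tested on simulated data. Counting error could not be computed without read counts, and the 2 pups per genotype limit precision.

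The members and lists were chosen with earlier results of these data known. Named genes were the members, Skiv2l, up to 3 called genes per list and direction with the largest change and no overlap of genotypes, Gpihbp1, Angptl4 and the PPAR genes, the 2 nearest profiles per tested member, the most abundant gene of marker lists, and copies of members. Some of these are not reported here. Genes of the Fabp5 and Fabp4 stretch other than members were added for their position. Alternatives were TPM, median scaling, a pseudocount of 0.1, quantile normalization, no filter, a stricter filter (FPKM above 1 in at least 2 samples), no trend, a replicate block and leaving out each library.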

Additional observations from a re-analysis of the deposited data

How the results depend on the processing

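With a pseudocount of 0.1 the log2 fold change was 5.06 for Fabp4, -0.98 for Fabp7 and -0.27 for Lpl, and with TPM it was 4.81, -0.59 and -0.24. With median scaling it was 4.64 for Fabp4, 2.17 for Fabp5 and -0.04 for Lpl, and with quantile normalization 4.58, 1.62 and 0.04, with -0.15 for Fabp7. Counts of called genes follow as higher and lower. Over all tested genes median scaling gave 1894 higher and 1623 lower and quantile normalization 1917 lower, against 1223 and 3455. Median scaling gave 5 higher in fatty acid transport and activation, 9 higher and 2 lower in LPL partners and lipases, 11 higher and 3 lower in the droplet list, 1 lower in the PPAR list and 4 higher in beta-oxidation. Quantile normalization gave 9 higher in LPL partners, 11 higher in the droplet list, 2 lower in the PPAR list and 4 higher in beta-oxidation. With no filter LPL partners had 2 higher and the other lipid-binding proteins 1 lower. Without the trend LPL partners had 3 higher, the PPAR list 4 lower and beta-oxidation 1 higher, and beta-oxidation also had 1 higher with TPM and with FPKM above 1 in at least 2 samples. That filter left out Fabp7, Cd36 and Lpl, and Fabp3 was in the fit with no filter alone, at -0.25. The scalings move every gene relative to the median, which is built into them, and the cause of the other changes was not tested.

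Leaving out 1 library, where limma takes the lone pup to vary like the other genotype, gave 497 to 1146 genes higher and 805 to 3135 lower. The lowest counts came without the first control (497 and 805), close to those without the second (542 and 810). The ranges were 0 to 2 higher and 5 to 10 lower in fatty acid transport, 1 to 5 and 1 to 7 in LPL partners, 1 to 6 and 3 to 7 in the droplet list, 1 to 2 and 1 to 7 in the PPAR list, and 0 to 1 and 2 to 17 in beta-oxidation. Of the 31 called list genes that the naming rule took, 16 were called in every alternative that could be fitted, 13 lost the call without the first control, 12 without the second, 3 without the first knockout and 5 without the second, and 0 reversed. The calls of Acot2 and Slc25a20 were lost under both scalings, and those of Mgll and Rxra under median scaling. The deviations of same-numbered libraries had a correlation of -0.077. Whether the replicate numbers pair pups by litter or processing is not in the labels, and this value cannot decide it. With the replicate block 1264 genes were higher and 3393 lower.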
